A study of Mus musculus with 6 samples.

Results

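The 35 genes described here encode the machinery by which mouse cells present peptides on major histocompatibility complex (MHC) molecules. They were taken by gene symbol as the heavy chains of MHC class I, the class I light chain, the CD1d heavy chain, the peptide transport, trimming and loading proteins, the immunoproteasome subunits, the class II chains with their chaperones, and the factors that switch both classes on. All 35 were found among the 56748 genes measured, 24 of them lie on chromosome 17, and 34 had enough reads to be tested. RNA was measured in uteri of 3 control and 3 *Gp130* ecKO sexually mature females of the C57BL/6J background (C57BL/6 in the labels) at 1600 h on day 4 of pregnancy, after mating with wildtype males. The ecKO females carried *Ltf*-iCre and *Gp130* flox/flox, and controls, which the labels call WT, were described as either *Ltf* +/+ with *Gp130* flox/flox or wildtype, without saying which kind each uterus was. *Ltf*-iCre drives recombination from the lactotransferrin locus in the uterine epithelium, a gene that neutrophils and other myeloid cells also use, and RNA came from whole tissue in which stroma, vessels and muscle, which the Cre is not meant to reach, contribute too. The labels call the tissue uterus, whereas the text on the study's design calls it endometrium. Nothing states that libraries were prepared in batches.

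Class I molecules sit on nearly all nucleated cells, pair a heavy chain with beta 2 microglobulin, and carry peptides cut by the proteasome, pumped into the endoplasmic reticulum by TAP and trimmed and fitted there. Class II molecules are made mainly by dendritic cells, macrophages and B cells, are escorted by the invariant chain CD74, and are loaded in endosomes with the help of H2-DM. The transactivator NLRC5 serves class I genes and CIITA serves class II genes, and interferon gamma raises both. In the pregnant uterus these molecules are of interest because the mother meets paternal antigens there.

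Reads of 75 bases can tell most class I genes apart, but not everywhere. The first 75 bases of exon 3, which codes for the alpha 2 domain that forms a wall of the peptide groove, are shown because *H2-Q2* is the member on which the comparison turns and because it had to be separated from its relatives. Bases that differ from *H2-Q2* are in capitals, and positions are those of GENCODE M39 on GRCm39.
H2-Q2, chr17:35562089-35562163, plus strand: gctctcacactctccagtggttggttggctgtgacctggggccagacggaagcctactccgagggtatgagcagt
H2-Q1, chr17:35540251-35540325, plus strand: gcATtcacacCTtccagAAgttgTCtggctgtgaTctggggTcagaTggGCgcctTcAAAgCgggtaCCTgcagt
H2-Q4, chr17:35599337-35599411, plus strand: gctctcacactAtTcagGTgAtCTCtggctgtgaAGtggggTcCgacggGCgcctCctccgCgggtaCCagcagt
H2-Q7, chr17:35658885-35658959, plus strand: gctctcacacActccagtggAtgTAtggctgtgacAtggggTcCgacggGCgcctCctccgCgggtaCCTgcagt
H2-K1, chr17:34218446-34218520, minus strand: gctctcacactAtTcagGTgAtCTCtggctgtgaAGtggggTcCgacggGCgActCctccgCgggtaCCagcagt
Within this stretch *H2-Q1* differed from *H2-Q2* at 21 bases, *H2-Q4* at 18, *H2-Q7* at 14 and *H2-K1* at 19. Over the whole exon of 276 bases the identity with *H2-Q2* was 79.7% for *H2-Q1*, 82.2% for *H2-Q4*, 82.6% for *H2-Q7* and 79.0% for *H2-K1*. Of all stretches of 75 bases in the transcripts of *H2-Q2*, 7.60% occurred unchanged in another gene, all of them in *H2-Q1* and some also in *H2-T15* and *Gm8815*. The shared portion was 17.6% for *H2-Q6*, 17.4% for *H2-Q7* and 18.4% for *H2-T22*, whose closest relative is *H2-T10*. These are portions on the same strand, and if counting did not use strand they were 7.60% for *H2-Q2*, 20.6% for *H2-Q6*, 17.4% for *H2-Q7*, 40.1% for *H2-T22* and, for *H2-Q4*, 21.03% in place of 7.0%. With up to 2 mismatches allowed, 27.6% of *H2-Q2* stretches had a counterpart in another transcript of the MHC region, against 62.7% for *H2-T22* and 52.2% for *H2-Q6*, so counts of these last genes depend more on how shared reads were divided.

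The promoter of *H2-Q2* was also compared with those of other class I genes, in RefSeq windows of 250 bases before the start of transcription (GRCm38.p6), which were given for 27 of the 35 members and 10 of the 12 heavy chains. The Y box, bound by the factor NF-Y, was searched as ATTGG and is in capitals in these stretches of 30 bases, which were placed on GRCm39 by an exact match of the whole window.
H2-Q2, chr17:35561192-35561221, plus strand: tctcatttccATTGGgtggcaggatcctgg
H2-Q4, chr17:35598504-35598533, plus strand: tctcacccccATTGGgtgacgtgatcaccg
H2-K1, chr17:34219318-34219347, minus strand: tcttacccccATTGGgtggcgcgatcacca
H2-D1, chr17:35481984-35482013, plus strand: tctcactatcATTGGgtggcgagattccag
ATTGG on either strand was present in 9 of the 10 heavy chain windows and in 33.8% of all 32851 windows. The letters of the interferon-stimulated response element of class I promoters, GAAGTGAAA, are in capitals below as they read on the other strand.
H2-Q4, chr17:35598430-35598459, plus strand: atctccccagTTTCACTTCtgctcctaact
H2-K1, chr17:34219392-34219421, minus strand: atctccacagTTTCACTTCtgcacctaacc
H2-D1, chr17:35481910-35481939, plus strand: atctcctcagTTTCACTTCtgcacctaacc
They occurred in 7 of the 10 heavy chain windows and in 0.402% of all windows, and the window of *H2-Q2* did not hold them. An NF-kB motif, GGGNNTTCC, was in 5 of the 10 heavy chain windows and 4.98% of all windows, and a gamma-activated site, TTCNNNGAA, in 1 of the 10 (*H2-M3*) and 7.02% of all windows, and the *H2-Q2* window held neither. In GENCODE the canonical *H2-Q2* and *H2-D1* transcripts start further upstream, so that the stretches shown for these genes lie within their annotated exon 1. These are matches of letters, and binding was not measured.

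The depth was 13960748 reads in control 3 and between 22930513 and 25906443 in the other uteri. Levels are given as CPM, reads of a gene scaled to the library's reads with TMM factors, or as the deposited TPM, which also allows for transcript length, where genes are compared with each other. The targeted gene *Il6st*, which encodes GP130, stood at 631, 678 and 452 CPM without the deletion and at 388, 350 and 362 CPM with it, a log2 fold change of −0.68 ± 0.21 (SE, edgeR adjusted p = 0.12). The groups did not overlap. Uterine epithelium markers were higher in ecKO uteri at an unadjusted p under 0.05 for 4 of 8 genes, stroma markers were lower for 6 of 8 and endothelium markers for 5 of 6, with none of these called, where 12.1% of all tested genes were higher and 12.9% lower at that p. Less RNA of a cell type and fewer cells of that type cannot be told apart in whole tissue.

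Among the 34 tested members, 1 was called different between the groups, the nonclassical class I gene *H2-Q2*, and it was higher in *Gp130* ecKO uteri. Calls were made with edgeR's quasi-likelihood test at a false discovery rate (FDR, Benjamini-Hochberg over 16605 genes) under 0.05 and more than 2-fold change. By this rule 0.157% of all tested genes were called, and 0.126% were called higher. At an unadjusted p under 0.05, *H2-Q2* was again the only member (2.94% of the members tested), against 25.0% of all tested genes, of which 12.1% were higher and 12.9% lower in ecKO uteri. *H2-Q2* was also the only member whose 3 ecKO values all lay on one side of the 3 control values, against 31.3% of all tested genes, 15.7% higher and 15.6% lower. The exact test of edgeR, which called 7.54% of tested genes, and DESeq2, which called 9.69% of the 15916 genes it gave an adjusted p, called no further member. The median log2 fold change of the 34 members was −0.06 and that of all tested genes −0.05, with 13 members above 0 and 21 below.

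**Figure D1:**
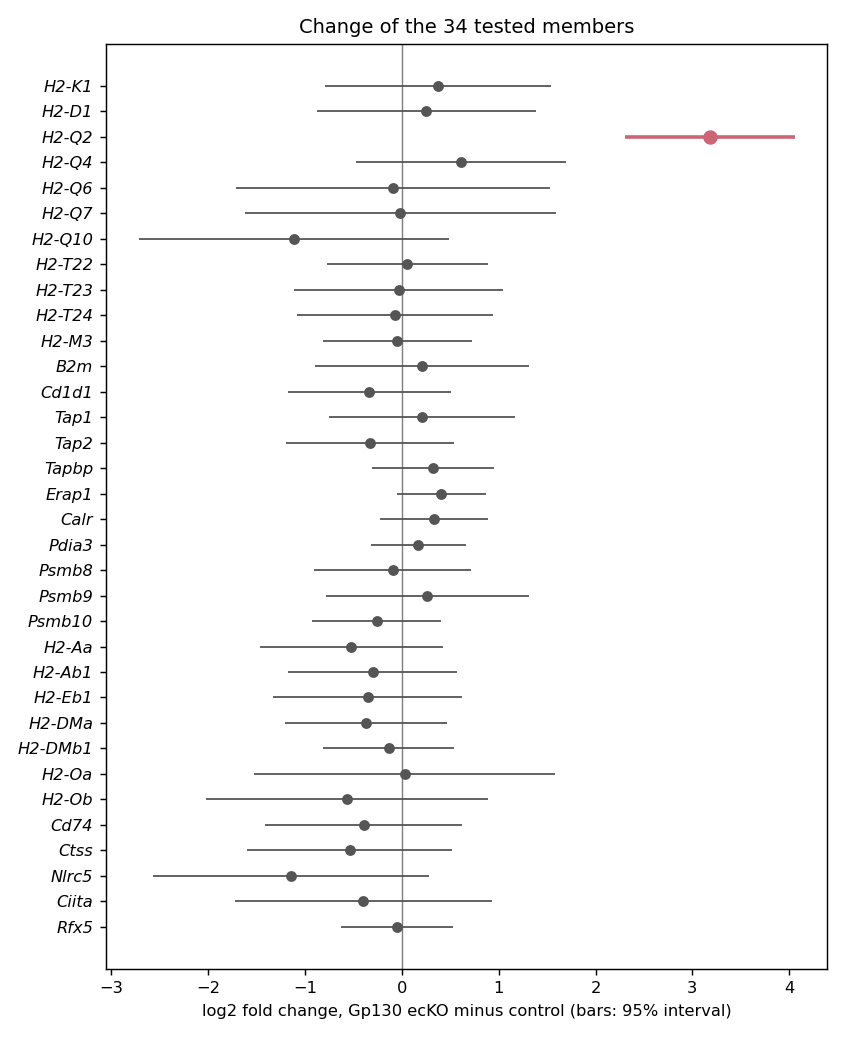
Log2 fold change of each tested member (x axis, *Gp130* ecKO minus control, n = 3 each) with its 95% interval from edgeR's quasi-likelihood fit. The interval of *H2-Q2*, in red, runs from 2.30 to 4.06, and those of the 33 other tested members include 0.

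*H2-Q2* encodes a heavy chain of the Q region of chromosome 17, the part of the MHC that holds nonclassical class I genes, and it lies at GRCm39 chr17:35561087-35566181 on the plus strand. The reads assigned to it numbered 94, 119 and 26 in controls 1 to 3 and 683, 961 and 612 in ecKO uteri 1 to 3. As CPM the controls measured 3.80, 4.59 and 1.73 and the ecKO uteri 30.9, 37.0 and 25.4. The lowest ecKO uterus was thus far above the highest control, and the highest ecKO value was 1.46 times the lowest, where the median of this ratio over the members was 2.67. Means were 3.38 ± 1.48 CPM in controls and 31.1 ± 5.80 CPM in ecKO uteri (SD, n = 3). The log2 fold change was 3.18 ± 0.38 (SE) with an edgeR adjusted p of 0.043, the 17th lowest p and the 142nd largest change among all tested genes. The exact permutation test gave p = 0.1, the smallest that 3 against 3 allows. By the edgeR exact test the adjusted p was 2.43e-10 and by DESeq2 it was 3.62e-13. The quasi-likelihood call was lost in edgeR's legacy form (adjusted p = 0.059) and with the replicate number as a block (0.059). It was also lost without control 1 (0.14), control 3 (0.063), ecKO 1 (0.11), ecKO 2 (0.096) or ecKO 3 (0.13), while the log2 fold change stayed between 2.89 and 3.48 over all 6 omissions.

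No other Q region gene among the members passed the test, so the make-up of the Q region's reads was described next. Reads of *H2-Q2* made up 1.09% (95% Wilson interval 0.888 to 1.33) of the reads of 7 Q region genes, the 6 members and *H2-Q5*, in control 1, 2.66% (2.23 to 3.17) in control 2 and 1.14% (0.776 to 1.66) in control 3. In ecKO uteri the portion was 24.3% (22.7 to 25.9), 7.42% (6.98 to 7.89) and 9.58% (8.88 to 10.33). These intervals cover counting error only. The portion was highest in ecKO 1, where the other Q genes were lowest, whereas *H2-Q2* itself was highest in ecKO 2. When the Q region genes were summed before the fit, the log2 fold change was 0.40 ± 0.51 (edgeR adjusted p = 0.65), and it was 0.31 ± 0.52 (0.73) for the sum of all class I heavy chains with *H2-Q5* and *H2-T10*. Both sums were added after the values had been seen.

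Per transcript, *H2-Q2* remained a small part of the class I pool. It contributed 0.104%, 0.222% and 0.103% of the TPM of the 12 heavy chain members in the controls and 2.48%, 0.914% and 0.714% in the ecKO uteri. *H2-K1* and *H2-D1*, the classical heavy chains of this haplotype, together supplied 87.0% to 91.0% of it in every uterus. *H2-Q1*, with which *H2-Q2* shares stretches, had 0 reads in each control and 1, 0 and 2 in the ecKO uteri. *H2-Q1* is the member that was not tested.

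**Figure D2:**
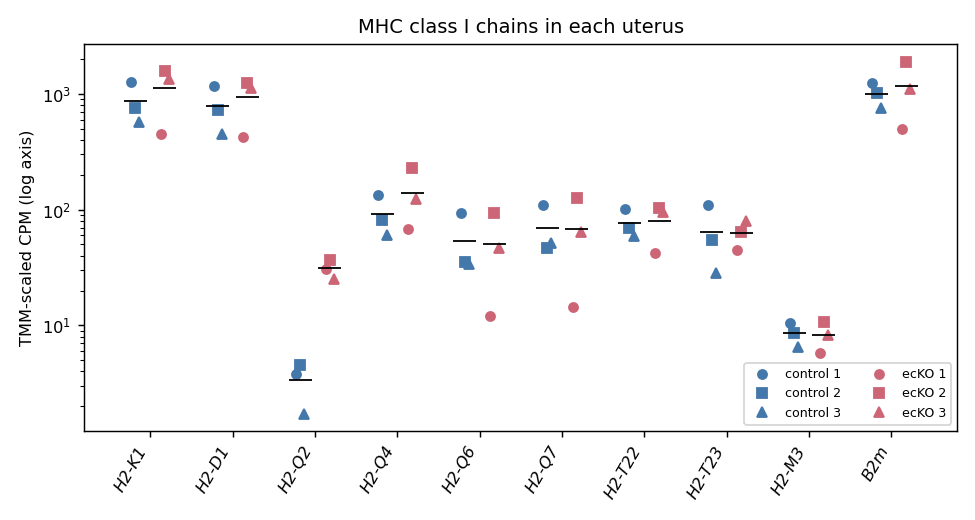
TMM-scaled CPM (log axis) of class I heavy chains and *B2m* in each uterus, with controls in blue, *Gp130* ecKO in red, symbols for replicate numbers and black lines for group means (n = 3). *H2-Q2* is the gene whose groups are apart, at 1.73 to 4.59 against 25.4 to 37.0 CPM, while the others overlap and ecKO 1 is usually the lowest point.

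The classical heavy chains were among the most abundant transcripts of the uterus. *H2-K1*, the K chain that presents peptides to CD8 T cells, measured 1268, 751 and 573 CPM in controls and 446, 1569 and 1350 CPM in ecKO uteri. Control 1 and ecKO 2 and 3 were high, ecKO 1 was the lowest of all 6, and the groups overlapped. The means were 864 ± 361 and 1122 ± 596 CPM (SD, n = 3), and the log2 fold change was 0.38 ± 0.50 (95% interval −0.79 to 1.55, edgeR adjusted p = 0.66). With a mean of 2260 TPM over the 6 uteri *H2-K1* ranked 58th of the 56748 genes. *H2-D1*, the second classical chain, followed at 641 TPM and ranged from 446 to 1180 CPM in controls and from 428 to 1240 CPM in ecKO uteri, with the same uterus lowest.

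*B2m*, the light chain on which all of these heavy chains depend for the cell surface, measured 1251, 1019 and 747 CPM in controls and 493, 1900 and 1104 CPM in ecKO uteri. The lowest and the highest value both belonged to the ecKO group. The log2 fold change was 0.21 ± 0.47 (95% interval −0.89 to 1.32, edgeR adjusted p = 0.80), and *B2m* ranked 82nd by TPM. The ratio of *B2m* to the summed heavy chains, in TPM, was 0.487, 0.698 and 0.634 in controls and 0.564, 0.669 and 0.440 in ecKO uteri, with overlapping groups (exact permutation p = 0.6, 1 of 7 ratios compared, adjusted p = 1.0).

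Of the other Q region chains, *H2-Q4* had the highest level per transcript. It measured 134, 81.4 and 59.8 CPM in controls and 67.8, 230 and 123 CPM in ecKO uteri. EcKO 2 was the highest of all and ecKO 1 lay among the controls. The log2 fold change was 0.61 ± 0.46 (95% interval −0.48 to 1.70, edgeR adjusted p = 0.43). *H2-Q6* and *H2-Q7*, which encode the Qa-2 antigens, varied most among the ecKO uteri, from 12.2 to 93.6 and from 14.3 to 126 CPM, ratios of 7.69 and 8.81 between highest and lowest. Their control values ran from 33.9 to 93.0 and from 46.2 to 109 CPM. *H2-Q10*, known as a liver-secreted chain, stayed at 1.20 CPM or below in every uterus.

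In the T and M regions, *H2-T22*, a chain that gamma delta T cells can recognise, had the highest TPM. Its values were 102, 69.9 and 59.6 CPM in controls and 42.5, 103 and 95.6 CPM in ecKO uteri. The groups overlapped, with a log2 fold change of 0.06 ± 0.36 (95% interval −0.77 to 0.89, edgeR adjusted p = 0.93). *H2-T23*, which encodes the Qa-1 ligand of the NKG2A receptor on NK cells, ranged from 28.5 to 110 CPM in controls and 44.5 to 80.3 CPM in ecKO uteri. *H2-M3*, which presents formylated peptides, ranged from 6.47 to 10.52 and from 5.79 to 10.8 CPM, and *H2-T24* was at or below 2.14 CPM throughout. *Cd1d1*, whose product shows lipids to NKT cells, measured 3.72, 5.48 and 4.67 CPM in controls and 2.62, 3.31 and 5.06 CPM in ecKO uteri, overlapping at a log2 fold change of −0.33 ± 0.36 (95% interval −1.17 to 0.51, edgeR adjusted p = 0.58).

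Peptide transport and loading genes had a median ratio of highest to lowest uterus of 1.64 in controls and 1.37 in ecKO uteri, and 5 of the 6 had a log2 fold change above 0. *Calr*, the chaperone calreticulin, measured 893, 721 and 615 CPM in controls and 985, 785 and 1037 CPM in ecKO uteri. EcKO 1 and 3 lay above every control and ecKO 2 did not. Its log2 fold change was 0.33 ± 0.24 (95% interval −0.22 to 0.89, edgeR adjusted p = 0.41). *Pdia3*, which works beside calreticulin in the loading complex, and *Erap1*, the aminopeptidase that trims peptides, also had their middle ecKO value above every control, with ranges from 706 to 881 against 663 to 818 CPM and from 94.8 to 122 against 68.1 to 101 CPM. The log2 fold change of *Erap1*, 0.41 ± 0.20, had the lowest p among members after *H2-Q2*, with an edgeR adjusted p of 0.24. On the deposited TPM scale, which lacks the TMM factor, *Calr*, *Pdia3* and *Erap1* were above every control in all 3 ecKO uteri and *H2-Q10* was below, making 5 members apart with *H2-Q2*, where 28.7% of all tested genes were apart.

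*Tap1*, a subunit of the peptide pump, had the heavy chains' order of ecKO uteri, with ecKO 1 lowest, from 49.5 to 102 CPM in controls and 42.1, 115 and 80.2 CPM in ecKO uteri 1 to 3. Its partner *Tap2* ranged from 35.2 to 97.7 and from 41.4 to 68.7 CPM. *Tapbp*, which encodes the tapasin that bridges TAP and the heavy chain, ranged from 237 to 429 and from 358 to 508 CPM. None of the 6 transport and loading genes passed at an unadjusted p under 0.05.

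The immunoproteasome subunits replace those of the constitutive proteasome and shift its cleavage toward class I peptides. *Psmb8* measured 151, 93.6 and 76.9 CPM in controls and 60.1, 132 and 109 CPM in ecKO uteri. The groups overlapped, with ecKO 1 lowest and control 1 highest, and the log2 fold change was −0.10 ± 0.35 (95% interval −0.91 to 0.72, edgeR adjusted p = 0.88). *Psmb9* ranged from 19.7 to 48.8 and from 19.0 to 55.1 CPM and *Psmb10* from 24.9 to 47.4 and from 26.3 to 39.7 CPM.

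Each immunoproteasome subunit was also set against the constitutive subunit it replaces, in TPM. *Psmb10* to *Psmb7* was 0.401, 0.361 and 0.472 in controls and 0.253, 0.315 and 0.293 in ecKO uteri. All ecKO ratios lay below all control ratios, a log2 difference of −0.52 (exact permutation p = 0.1, the smallest possible, and 0.7 after adjustment over the 7 ratios). *Psmb8* to *Psmb5* was 0.402, 0.363 and 0.410 in controls and 0.245, 0.778 and 0.410 in ecKO uteri, and *Psmb9* to *Psmb6* was 0.268, 0.208 and 0.158 against 0.124, 0.411 and 0.263. These groups overlapped, and ecKO 1 had the lowest and ecKO 2 the highest ratio for each.

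The class II genes had another order of uteri. *H2-Ab1*, the beta chain of the I-A molecule shown to CD4 T cells, measured 113, 135 and 126 CPM in controls and 69.5, 171 and 63.1 CPM in ecKO uteri. The controls were close together, ecKO 1 and 3 lay below all of them, and ecKO 2 lay above. The log2 fold change was −0.30 ± 0.37 (95% interval −1.17 to 0.57, edgeR adjusted p = 0.64). *H2-Aa*, the alpha chain of I-A, and *H2-Eb1*, the beta chain of I-E, kept that order, with ecKO values of 49.2, 128 and 43.4 CPM and of 46.2, 125 and 39.8 CPM. The median ratio of highest to lowest uterus over the 3 chains was 1.19 in controls and 2.94 in ecKO uteri, where all tested genes had medians of 1.62 and 1.5. *H2-Ea*, the gene of the I-E alpha chain and not a member, had 0 reads in every uterus.

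*Cd74*, the invariant chain, measured 206, 245 and 214 CPM in controls and 106, 305 and 94.8 CPM in ecKO uteri. As for the chains, ecKO 1 and 3 were below and ecKO 2 above every control. The log2 fold change was −0.40 ± 0.43 (95% interval −1.41 to 0.62, edgeR adjusted p = 0.59). Per transcript, *Cd74* to the summed chains had a mean of 0.588 ± 0.072 in controls and 0.588 ± 0.055 in ecKO uteri, and *H2-Aa* to *H2-Ab1* 0.749 ± 0.032 and 0.752 ± 0.073 (SD, n = 3, exact permutation p = 1.0 for both). The summed class II chains relative to the class I heavy chains were 0.0903, 0.179 and 0.245 in controls and 0.143, 0.112 and 0.0462 in ecKO uteri, which overlapped (exact permutation p = 0.3, adjusted p = 1.0).

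The remaining class II helpers were lower in abundance. *Ctss*, the protease that cuts the invariant chain, ranged from 47.9 to 71.7 CPM in controls and measured 17.6, 69.9 and 34.5 CPM in ecKO uteri. *H2-DMa* and *H2-DMb1*, whose products exchange peptides on class II, ranged from 9.22 to 13.0 and from 14.5 to 18.8 CPM in controls and from 5.65 to 13.2 and from 11.7 to 21.3 CPM in ecKO uteri. *H2-Oa* and *H2-Ob*, which restrain H2-DM, stayed at 2.67 CPM or below. In all 6 of these chaperones and proteases ecKO 2 was the highest ecKO uterus.

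When ecKO 2 was left out, the groups did not overlap for 12 of the 34 tested members, *H2-Q2* among them, and 9 were lower in ecKO uteri. Over all tested genes 42.1% did not overlap, 22% lower. Members were thus not apart more often than genes at large, and the portion that was lower was close to that of all genes. The 9 were *H2-Aa*, *H2-Ab1*, *H2-Eb1*, *Cd74*, *Ctss*, *H2-DMa*, *H2-DMb1*, *Ciita* and *H2-Q10*. Each of the other omissions left 1 to 4 members apart, where 36.2% to 45.6% of all tested genes were apart. EcKO 2 was the highest ecKO uterus for 28 of the 34 members, so leaving it out lowers the ecKO values of those members by construction. Without ecKO 2 the log2 fold change of *H2-Ab1* was −0.90 ± 0.20 (edgeR adjusted p = 0.12) and that of *Cd74* −1.14 ± 0.20 (0.11), so neither was called. The same library turned the direction of *B2m*, which was at −0.33 ± 0.42 without it, and of *H2-T22*, at −0.16 ± 0.39.

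**Figure D3:**
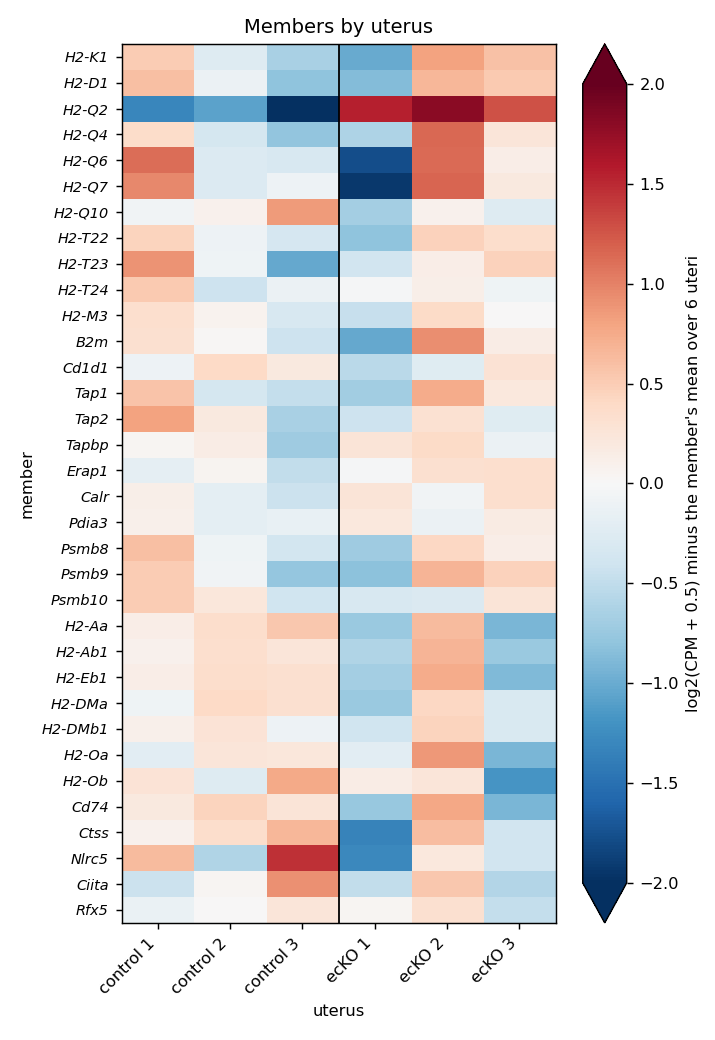
Level of the 34 tested members in each uterus as log2(CPM + 0.5) minus the member's mean over the 6 uteri, red for higher and blue for lower, with the colour scale ending at 2 in either direction. *H2-Q2* is low in all controls and high in all ecKO uteri, most class I heavy chains have their lowest ecKO value in ecKO 1, and class II genes are low in ecKO 1 and 3 and high in ecKO 2.

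Of the factors that control these genes, 3 are members, and all 3 stayed at 36.9 CPM or below in every uterus. *Rfx5*, a subunit of the complex that binds the X box of both classes, measured 26.7, 29.5 and 34.9 CPM in controls and 30.3, 36.9 and 20.9 CPM in ecKO uteri. The groups overlapped at a log2 fold change of −0.05 ± 0.25 (95% interval −0.62 to 0.53, edgeR adjusted p = 0.92). *Nlrc5*, the class I transactivator, ranged from 4.24 to 19.3 CPM in controls and from 2.44 to 7.85 CPM in ecKO uteri. *Ciita*, the class II transactivator, ranged from 1.54 to 4.67 and from 1.33 to 3.50 CPM. The uterus with the most *Nlrc5* and *Ciita* was control 3, the shallowest library.

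Transcripts of leukocytes, which include the cells known for class II, were also read, and ecKO 2 was often the highest ecKO uterus. Among markers, *Ptprc*, which encodes CD45 of all leukocytes, measured 13.2, 15.6 and 38.7 CPM in controls and 10.58, 23.4 and 5.56 CPM in ecKO uteri. *Csf1r* of macrophages measured 17.1, 23.6 and 24.5 CPM against 9.49, 21.2 and 12.2 CPM. For both, unlike the class II chains, ecKO 2 lay below control 3. EcKO 2 was the highest ecKO uterus for 9 of 13 tested macrophage markers and 9 of 10 for dendritic cells. The count was 7 of 7 for T cells, 7 of 8 for NK cells and 6 of 6 for all leukocytes. It was 2 of 3 for B cells and only 1 of 5 for neutrophils. The same uterus was the highest ecKO uterus for 28 of the 34 members and for 5346 of the 16605 tested genes. The part of leukocytes in the class II values was not tested. Other leukocyte genes had another order. *Lyz2* was highest in ecKO 1, at 466 CPM, and *Laptm5* was higher in all ecKO uteri, at 115 to 142 against 58.9 to 90.4 CPM (unadjusted p = 0.0032, edgeR adjusted p = 0.086).

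Summed over each marker list, the NK cell markers measured 52.7 to 81.5 CPM in controls and 15.01 to 64.9 CPM in ecKO uteri, the T cell markers 5.55 to 8.29 and 1.31 to 14.2 CPM, and the B cell markers 2.24 to 3.53 and 0.859 to 2.46 CPM. The macrophage markers summed to 448 to 586 and 299 to 566 CPM, with *Lyz2* alone at 206 to 261 and 142 to 466 CPM. The dendritic cell markers summed to 803 to 961 and 1213 to 1490 CPM, with *Cd24a* alone at 772 to 924 and 1154 to 1463 CPM. The markers of all leukocytes summed to 145 to 255 and 153 to 241 CPM, with *Laptm5* alone at 58.9 to 90.4 and 115 to 142 CPM. These sums thus follow mainly their most abundant genes. Neutrophil markers summed to 5.53 to 9.06 CPM in controls and 1.13 to 4.35 CPM in ecKO uteri. The B cell marker *Pax5* was at 0 in every uterus but control 3, which had 1 read. The order of *H2-Q2*, with every ecKO uterus above every control, was seen in the sum of no leukocyte list other than the dendritic cell markers, which *Cd24a*, also an epithelial gene, dominates. The sum of the epithelium markers had that order too, at 2241 to 3942 CPM in controls and 5446 to 7190 CPM in ecKO uteri. Of the 8 genes 5 had it singly, where 15.7% of all tested genes had it. *Krt18*, *Cldn4* and *Epcam* overlapped, and the mean of *Epcam* was lower in ecKO uteri, 402 against 459 CPM. The part of the epithelium in the *H2-Q2* value was not tested.

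**Figure D4:**
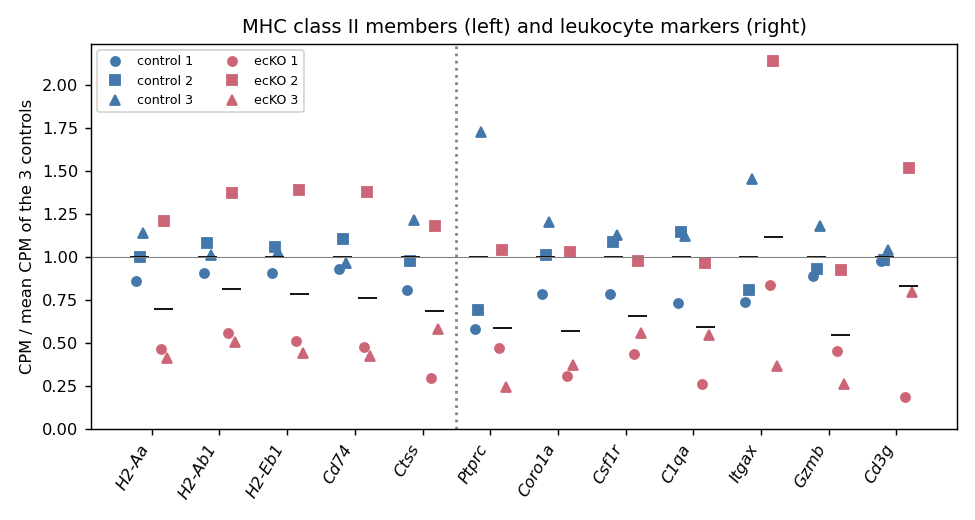
CPM of 5 class II members and 7 leukocyte markers in each uterus, divided by the mean of the 3 controls (y axis, from 0), with controls in blue, *Gp130* ecKO in red and black lines for group means. For the class II members ecKO 1 and 3 lie below the controls and ecKO 2 near or above the highest control. For the 7 leukocyte markers ecKO 2 is the highest ecKO uterus, but for several it lies below the highest control. The 7 markers were picked from longer lists. Others had another order, such as *Lyz2*, highest in ecKO 1, and *Laptm5*, above every control in all ecKO uteri.

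Other genes of the pathway were counted from lists of 85 genes, of which 57 were tested. None was called, 10 were higher and 9 lower at an unadjusted p under 0.05, or 33.3% of those tested, against 25.0% of all tested genes (12.1% higher and 12.9% lower). Of 11 tested genes for class II processing and turnover 3 were lower, the lysosomal proteases *Lgmn* (524, 166 and 200 CPM in controls, 54.8, 76.6 and 76.9 CPM in ecKO uteri, log2 fold change −2.10 ± 0.44), *Ctsl* (−0.98 ± 0.25) and *Ctsz* (−0.86 ± 0.22). These groups did not overlap for any of the 3. In the same list 3 genes were higher, the ubiquitin ligase *Marchf8*, which sends class II molecules to degradation (0.59 ± 0.21), the intramembrane protease *Sppl2a*, which clears the rest of CD74 (0.53 ± 0.17), and the tetraspanin *Cd9* (0.66 ± 0.21).

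Of 13 tested genes by which interferons induce MHC expression, 3 were higher at an unadjusted p under 0.05. Among them were the receptor chain *Ifngr2* (82.0, 113 and 87.2 CPM in controls, 167, 184 and 163 CPM in ecKO uteri, 0.86 ± 0.18) and the kinase *Jak2* (168, 455 and 190 against 574, 641 and 546 CPM, 1.12 ± 0.38). Both were above every control in each ecKO uterus, with edgeR adjusted p of 0.073 and 0.14. *Ifnar2*, a chain of the type I interferon receptor (−0.55 ± 0.22), and *Batf3*, a factor of cross-presenting dendritic cells (−1.68 ± 0.49), were lower at an unadjusted p under 0.05. *Ifng* itself was too low to be tested.

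The genes named next as higher or lower passed only at an unadjusted p under 0.05, and none was called. Among 12 other class I loading and trimming genes, *Lnpep*, *Ganab*, *Uggt1* and *Sec61a1* were higher, by 0.64, 0.54, 0.40 and 0.46 on the log2 scale. *Thop1*, a cytosolic peptidase that destroys peptides, was lower, at −0.55. Of 7 other class I and class I-like genes tested, *H2-K2*, annotated as a transcribed pseudogene (−2.68 ± 0.93, at 2.73 CPM in control 3, 0.445 and 0.424 CPM in controls 1 and 2 and 0.124 to 0.192 CPM in ecKO uteri, with 77.5% of its stretches shared with a long noncoding RNA gene annotated over it), and *Procr* (−1.07 ± 0.42), which encodes an endothelial protein C receptor built like CD1, were lower. Of 6 RFX, NF-Y and CREB partners, *Nfyb* was lower (−0.42 ± 0.18). None of the 7 genes for the constitutive proteasome and its PA28 cap passed at an unadjusted p under 0.05, nor did the tested gene of the other class II list.

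*H2-Q2* was also read against the genes that surround it. The members on chromosome 17 span GRCm39 chr17:34134873-37585384, an interval of 3.45 Mb with 324 genes. Besides the members, 115 genes of the interval were tested, and none was called. Of these, 6 were higher and 23 lower at an unadjusted p under 0.05. That was 25.2% in all, against 25.0% of all tested genes (12.1% higher and 12.9% lower), so the interval's genes leaned toward lower. The groups did not overlap for 13 higher and 30 lower genes, 37.4% against 31.3% of all tested genes. Of the genes with an unadjusted p under 0.05 and a mean of at least 1 CPM, the 5 changes largest in size were those of *Zfp57* (−2.80 ± 0.74), the predicted gene *Gm56909* (−2.10 ± 0.61), *Cyp21a1* (−2.03 ± 0.77), *Gabbr1* (−2.02 ± 0.62) and *Sapcd1* (−1.59 ± 0.50), each lower in ecKO uteri. *Gm20427* (1.94 ± 0.86) and *Gm20463* (1.70 ± 1.14) were larger in size than *Sapcd1* but did not pass that p. *Zfp57* and *Gabbr1* were highest in control 3, at 33.8 and 68.0 CPM.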

How the data were processed

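The comparison set 3 control against 3 *Gp130* ecKO uteri. For each, the authors deposited a table made by RSEM that lists the expected count, the TPM and the FPKM per gene. Libraries were poly(A)-selected, strand-specific and sequenced from a single end with reads of 75 bases. Per the submitters' processing notes and methods, reads were trimmed with fastp 0.23.2, cleared of ribosomal RNA, mapped to GRCm39 with STAR 2.7.10a and counted with RSEM 1.3.3, which apportions ambiguous reads among genes by likelihood. Whether strand was used in counting is not given in the sources used here. FPKM as deposited by the authors was not used, and TPM as deposited served for ratios, levels between genes and an alternative test.

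Rounded expected counts went into edgeR 4.0.16 (R 4.3.3), with filterByExpr, TMM and the quasi-likelihood F test (glmQLFit without its legacy form), with Benjamini-Hochberg adjustment over 16605 genes. Intervals are 95%. Single values were compared with exact two-sided permutation tests of log2(CPM + 0.5) or of log2 ratios. Symbols and positions came from GENCODE M39, which holds 56017 of the 56748 identifiers. The labels do not say that replicates were separate animals, so p-values measure the spread between these uteri. The 35 members, the lists and the motifs were chosen with earlier results of these data known. Values in every uterus are given for members that were called, had an unadjusted p under 0.05 or did not overlap, and for the member with the highest mean TPM of each role. Pathway genes are named at an unadjusted p under 0.05, apart from 1 that is not reported here, and interval genes for the 5 changes largest in size at that p and a mean of at least 1 CPM. No 2 libraries of a group agreed within sampling noise. The fit was tested on simulated data with 200 changed genes. Alternatives were other tests (limma 3.58.1, DESeq2 1.42.0), scalings, filters, thresholds and each uterus left out.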

Additional observations from a re-analysis of the deposited data

How the results depend on the processing

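The 26 genes called by the quasi-likelihood test became 1252 with the exact test, 1317 with the likelihood ratio test, 1542 with DESeq2, 7 with the legacy form, 78 with limma on log2(TPM + 1), 105 with no filter on low counts, 856 at an FDR under 0.10 and 6 with the replicate block, and ran from 1 to 897 when each uterus was left out, with 897 without control 2. The number of members called, 1, was 0 with the legacy form and 0 with the replicate block, ran from 0 to 1 when each uterus was left out, and was 1 under the other alternatives. With the replicate block the log2 fold change of *H2-Q2* was 3.26 (adjusted p = 0.059). Same-numbered uteri deviated together with correlations of 0.10, 0.07 and −0.20. With 3 uteri a group, such values cannot show whether the numbers paired the uteri. Members whose groups did not overlap numbered 5 on the TPM scale, where 28.7% of all tested genes did not overlap. They numbered 1 to 12 when each uterus was left out, where 36.2% to 45.6% of all tested genes did not overlap. Among the 11 members with values in every uterus, the direction turned for *Rfx5* with limma on TPM (0.03) and, when each uterus was left out, for *Rfx5* (log2 fold change from −0.24 to 0.18, above 0 without control 3 or ecKO 3), *Psmb8* (−0.34 to 0.26, above 0 without control 1 or ecKO 1), *H2-T22* (−0.16 to 0.37, below 0 without control 3, ecKO 2 or ecKO 3) and *B2m* (−0.33 to 0.58, below 0 without ecKO 2). None of these was called, and the cause was not tested. A planned sum of class I genes sharing at least 50% of their stretches with another class I gene was not run, because none of those analysed reached that portion (*H2-K2* shares them with a noncoding gene not analysed here). Control 3 was the shallowest library, and with 3 uteri a group the intervals of most members reach past a 2-fold change.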
